A study of Mus musculus with 32 samples.

Results

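The RNA of unfertilised mouse eggs labelled Trp53 KO was compared with that of WT eggs, in 3 single metaphase II eggs of each label. A gene belonged to the set described here if its FPKM, a read number scaled by the length of the gene and the size of the library, was 1 or more in at least 3 of the 6 eggs. Of the 54532 genes in the table, 6607 met this rule, and 4831 of them reached FPKM 1 in all 6 eggs. The knockout allele was made from a floxed Trp53 allele, whose loxP sites surround exons 2 to 10, with the germ-cell driver Ddx4::Cre. The females that gave the knockout eggs descended from Trp53 KO males and females that carried 1 floxed allele, and the WT controls were Trp53 flox/flox animals. The labels give the background as mixed Bl6/C57. The number of mothers behind the eggs of a group is not in the labels, so the p-values measure the spread between single eggs, and sister eggs would make them too small.

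A full-grown egg makes almost no new RNA. It carries a store of maternal RNA from oocyte growth, and translation, masking and timed decay of this store run meiotic maturation, fertilisation and the first cleavage until the embryo's own genes start. Trp53 encodes p53, a transcription factor that halts or kills cells after DNA damage and other stress.

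Each library was made from 1 egg or embryo, whose RNA was copied and amplified with a full-length kit, SMRT-seq v4 in the labels, in 15 PCR cycles and cut with Tn5 for sequencing. The series also holds early 2-cell embryos, collected 28 to 32 hours after hCG, the hormone that triggers ovulation. There are 6 embryos labelled Trp53 MZ-KO, of a knockout mother and a knockout father, and 8 WT embryos. These libraries share none with the eggs, and the genes that differed between eggs were looked up in them. Late 2-cell embryos, 6 of each label at 48 hours, enter below with Trp53 only. The scale of an egg library rested on 13.5 to 22 M reads (M, mega). The lowest correlation between 2 egg libraries, over log2(FPKM + 1), was 0.919, and it involved WT egg library 1. Among the early embryos WT library 3 had correlations of 0.829 to 0.917 with the others and WT library 8 was the shallowest, at 7.21 M reads. The library numbers used below follow the table's columns and carry no pairing.

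By FPKM, the eggs carried the markers of eggs at high values and those of other cells at low values. All 14 oocyte markers belonged to the set, with a summed FPKM of 5731 to 6735 in the eggs labelled Trp53 KO and 5071 to 6230 in WT eggs. None of the 19 cumulus and granulosa markers did, the cells that surround an ovulated egg. Their summed FPKM was 0.733 to 1.09 in the eggs labelled Trp53 KO and 0.820 to 1.16 in WT eggs, and 7 of them were listed at 0 in every egg. Likewise no member of the lists of 9 other blood cell markers, 9 sperm markers and 4 Y-linked genes reached the set. The sperm markers summed to 0.762 to 0.881 FPKM in the eggs labelled Trp53 KO and 0.467 to 1.31 in WT eggs, and the Y-linked genes to at most 0.008 FPKM in the eggs labelled Trp53 KO and 0.007 in WT eggs. The other blood cell markers summed to 0.452 to 0.650 FPKM in the eggs labelled Trp53 KO and 0.397 to 0.673 FPKM in WT eggs, and 7 were at 0 in every egg. FPKM here divides by the span with introns, so a low value of a long gene need not mean few reads. The granulosa marker Cyp19a1 had 715, 473 and 462 recovered reads in the eggs labelled Trp53 KO and 665, 772 and 366 in WT eggs. The blood cell marker Csf1r had 192, 373 and 313 reads in the eggs labelled Trp53 KO and 449, 275 and 270 in WT eggs.

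Most of the 6607 genes were protein-coding, 4485 in number. A further 932 were processed pseudogenes, 361 antisense transcripts, 235 lincRNAs and 117 miRNA loci. The length in the deposited FPKM is the whole gene span, and no read could be assigned to a strand. How reads within a span were counted is not given. It is therefore not shown that reads of overlapping, nested and antisense genes were told apart, and many of these loci may read a neighbour. Levels of different genes are therefore compared here per exonic length, which is FPKM rescaled from the gene span to the exons. The rescaling would overstate a gene if reads in its introns were counted. With the rule for the set applied on exonic length 12066 genes would enter, so a gene outside the set need not lack RNA. On that scale 54 genes had a mean of 1000 or more over the 6 eggs, 628 had 100 or more and 4019 had 10 or more. The store was uneven, with 15.6% of the summed level in the 15 most abundant genes of any class and 40.5% in the top 100. These were ranked by the mean over the 6 eggs, and reads in overlapping genes may count more than once. The 15 protein-coding RNAs described next were ranked in WT eggs and are another set.

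The most abundant protein-coding RNAs were those of oocyte factors, and none of the top 15 was called different between the labels. Obox1, of an oocyte-specific homeobox family, had levels per exonic length of 5296, 5209 and 5271 in the eggs labelled Trp53 KO and 8388, 5297 and 5466 in WT eggs. Its span covers Obox2 and other Obox genes, so its value may include some of theirs. H1foo, the linker histone of the oocyte, had 5308, 7422 and 7134 per exonic length in the eggs labelled Trp53 KO and 4686, 4941 and 7155 in WT eggs. The groups of H1foo overlapped, as did those of Tcl1, a co-activator of the kinase Akt, which had 5881, 5529 and 6836 per exonic length in the eggs labelled Trp53 KO and 3773, 5711 and 6742 in WT eggs. Bcl2l10, an oocyte member of the Bcl-2 family, averaged 5526 ± 498 in the eggs labelled Trp53 KO and 5201 ± 869 in WT eggs (level per exonic length, SD, n = 3 each). Dppa3, which shields maternal DNA methylation in the zygote, had 2894, 2556 and 2694 per exonic length in the eggs labelled Trp53 KO and 3721, 3073 and 2809 in WT eggs. Btg4, the adaptor that brings the deadenylase to maternal mRNAs, had 2922, 2309 and 2952 per exonic length in the eggs labelled Trp53 KO and 3063, 2309 and 2954 in WT eggs.

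In 3 of these 15 RNAs the groups did not overlap, for Obox1 by a single unit. Rfpl4, a RING finger protein of oocytes, had 3664, 3934 and 3921 per exonic length in the eggs labelled Trp53 KO and 4081, 4442 and 4910 in WT eggs. Obox2 had 3359, 2856 and 2966 per exonic length in the eggs labelled Trp53 KO and 5402, 3591 and 3613 in WT eggs. No difference among the 3 passed the test, with limma adjusted p of 0.790 for Obox1, 0.737 for Rfpl4 and 0.623 for Obox2, and over all 6607 genes the 3 eggs labelled Trp53 KO lay below all 3 WT eggs in 5.57% of genes. The remaining RNAs of the top 15 were those of the oocyte-secreted proteins Oosp1 and Oosp3, of Zbed3, which belongs to the subcortical maternal complex, of Tcl1b1, Oog3 and Omt2b, and of E330034G19Rik. The log2 differences of the 15 ran from -0.43 for Obox2 to 0.25 for H1foo.

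**Figure D1:**
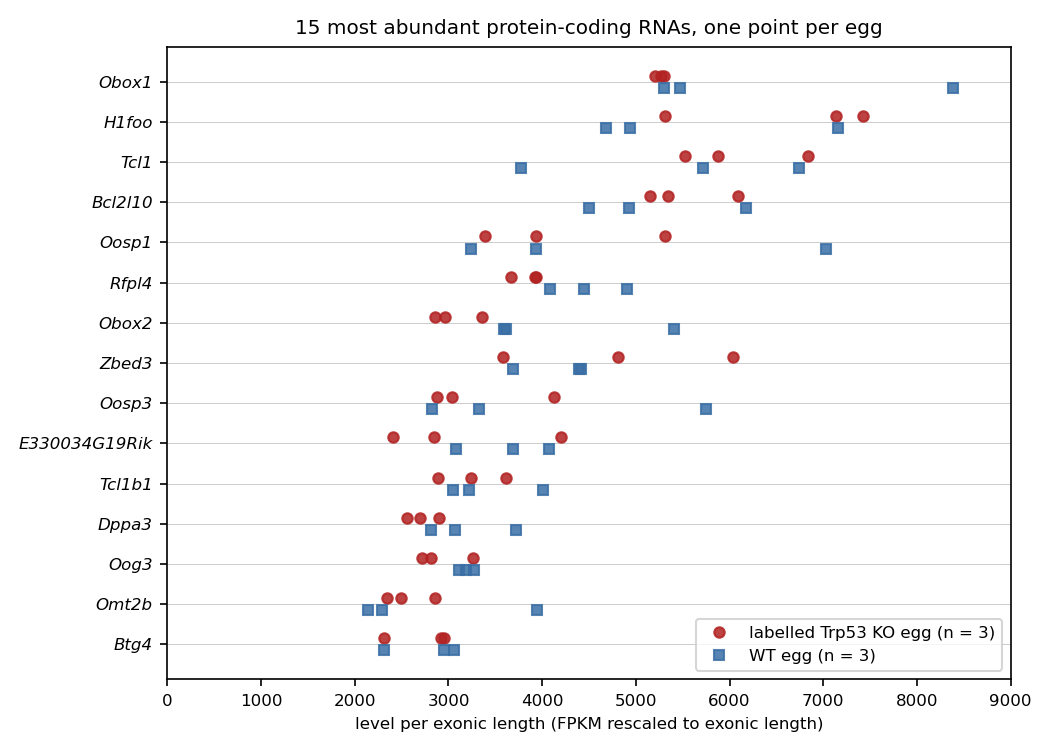
The 15 protein-coding RNAs with the highest mean level in WT eggs, as level per exonic length (FPKM rescaled to exonic length) in each of the 3 eggs labelled Trp53 KO (circles, upper) and 3 WT eggs (squares, lower). Obox1 reaches 8388 in WT egg library 1, and the eggs labelled Trp53 KO lie below all WT eggs for Obox1 (by a single unit), Rfpl4 and Obox2.

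Outside the T cell receptor segments described further on, no member of any list was called by limma. The 8 genes of the subcortical maternal complex, a protein assembly under the egg membrane that early cleavage needs, were all in the set. Their median log2 difference (label Trp53 KO minus WT) was 0.07 over a range of -0.21 to 0.75, beside a median of 0.06 over all genes, and none was at an unadjusted p below 0.05. The widest was Khdc3, with FPKM of 3.93, 9.77 and 3.30 in the eggs labelled Trp53 KO and 1.60, 3.99 and 2.69 in WT eggs. The highest level of the complex was that of Zbed3, followed by Nlrp4f at 361 per exonic length in the eggs labelled Trp53 KO and 367 in WT eggs, and by Padi6 at 238 in the eggs labelled Trp53 KO and 284 in WT eggs.

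Of 14 zona pellucida and secreted oocyte factors, 12 were in the set, with a median log2 difference of 0.23 (-0.19 to 0.89) and 2 at an unadjusted p below 0.05. Zp3, a glycoprotein of the egg coat to which sperm bind, had FPKM of 21.2, 30.1 and 22.8 in the eggs labelled Trp53 KO and 9.31, 16.4 and 13.2 in WT eggs. The groups of Zp3 did not overlap, as in 9.94% of all genes with the eggs labelled Trp53 KO on top, and its log2 difference of 0.89 had an adjusted p of 0.376 by limma. Gdf9, the growth factor through which the oocyte directs the cumulus cells, had 716, 880 and 811 FPKM in the eggs labelled Trp53 KO and 470, 744 and 883 FPKM in WT eggs. The groups of Gdf9 overlapped.

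The machinery that stores, masks and removes maternal mRNA was present in both groups. Of 13 maternal mRNA storage factors 10 were in the set, with a median log2 difference of 0.17 and none at an unadjusted p below 0.05. The RNA-binding protein Dazl had a level per exonic length of 387 in the eggs labelled Trp53 KO and 385 in WT eggs. Zar1, which binds and stores maternal mRNA, varied most from egg to egg, with FPKM of 394, 298 and 123 in the eggs labelled Trp53 KO and 142, 225 and 190 in WT eggs. Of 23 deadenylation and decay factors 15 were in the set, with a median of 0.06 and 1 at an unadjusted p below 0.05. That gene was Pan2, a catalytic subunit of a deadenylase, with FPKM of 4.87, 4.26 and 6.90 in the eggs labelled Trp53 KO and 12.3, 6.92 and 7.63 in WT eggs (log2 difference -0.63, limma adjusted p = 0.566). The deadenylase subunit Cnot7 had 357 per exonic length in the eggs labelled Trp53 KO and 297 in WT eggs.

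Meiotic and spindle genes were likewise without a call. Of 24 genes of meiotic arrest and M-phase 19 were in the set, with a median log2 difference of 0.10 (-0.41 to 0.77), and of 27 genes of the spindle checkpoint, kinetochore and cohesion 21 were, with a median of 0.05 (-0.34 to 0.47). No member of either list was at an unadjusted p below 0.05. Mos, a kinase needed for the metaphase arrest of eggs, had FPKM of 420, 797 and 371 in the eggs labelled Trp53 KO and 290, 434 and 449 in WT eggs. Its groups overlapped, and 1 egg labelled Trp53 KO was far above the others. The cyclin Ccnb1 had 344 per exonic length in the eggs labelled Trp53 KO and 324 in WT eggs. Pttg1, the securin that guards separase, had 1846 per exonic length in the eggs labelled Trp53 KO and 1880 in WT eggs. The phosphatase inhibitor Ensa was the widest of the M-phase list, with FPKM of 5.93, 4.92 and 4.48 in the eggs labelled Trp53 KO and 1.14, 4.51 and 2.86 in WT eggs.

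The genes around p53 itself showed no called difference either. Of 18 p53 family members and regulators 6 were in the set, with a median log2 difference of 0.11 (-0.10 to 0.20). Mdm4, which binds and restrains p53, had FPKM of 49.5, 58.2 and 52.2 in the eggs labelled Trp53 KO and 41.3, 55.3 and 42.7 in WT eggs. Chek1, a checkpoint kinase upstream of p53, had 78.0, 70.3 and 79.8 FPKM in the eggs labelled Trp53 KO and 62.4, 71.9 and 69.4 FPKM in WT eggs. The groups overlapped in both genes. Of 31 p53 targets 9 reached the set, with a median of -0.03 (-0.18 to 0.20), and none was at an unadjusted p below 0.05. The rule uses the gene span, so a long gene can miss the set, and these counts do not measure absence. Rrm2b, a ribonucleotide reductase subunit that p53 induces, had FPKM of 9.99, 9.32 and 10.9 in the eggs labelled Trp53 KO and 10.8, 9.58 and 9.16 in WT eggs. Ddb2, a damage sensor of nucleotide excision repair, had 5.59, 4.22 and 4.79 FPKM in the eggs labelled Trp53 KO and 7.19, 4.38 and 5.54 FPKM in WT eggs. Of 40 DNA repair genes 25 were in the set, with a median of 0.09 (-0.44 to 0.66) and none at an unadjusted p below 0.05. Of 26 genes of the Bcl-2 family and caspases 6 were, with a median of 0.19 and 1, Cycs, at an unadjusted p below 0.05. Cycs, the cytochrome c of the respiratory chain and of apoptosis, had FPKM of 4.63, 4.49 and 4.54 in the eggs labelled Trp53 KO and 3.86, 2.27 and 2.30 in WT eggs (log2 difference 0.57, limma adjusted p = 0.522).

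Among the larger lists the 20 maternal chromatin factors in the set, of 29, had a median log2 difference of -0.01 (-0.55 to 0.50). The median was 0.20 for 27 of 39 proteasome subunits, -0.08 for 22 of 88 cytosolic ribosomal proteins and -0.09 for 40 of 85 nuclear genes of the respiratory chain and ATP synthase. At an unadjusted p below 0.05 there were 1 proteasome, 4 ribosomal and 7 respiratory genes, and none of the chromatin factors, beside 577 of the 6607 genes of the set. Rpl6l, on the ribosomal list but annotated as a processed pseudogene, was closest to a call (log2 difference 1.00, limma adjusted p = 0.0917). Its FPKM was 1.36, 1.58 and 1.43 in the eggs labelled Trp53 KO and 0.326, 0.209 and 0.155 in WT eggs. That rests on 16, 25 and 24 recovered reads in the eggs labelled Trp53 KO and 6, 4 and 2 in WT eggs. Of 22 genes that the factor Dux switches on in 2-cell embryos, Tcstv1 and Tcstv3 reached the set. Tcstv1 had FPKM of 23.1, 19.7 and 11.47 in the eggs labelled Trp53 KO and 24.3, 29.96 and 21.96 in WT eggs.

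**Figure D2:**
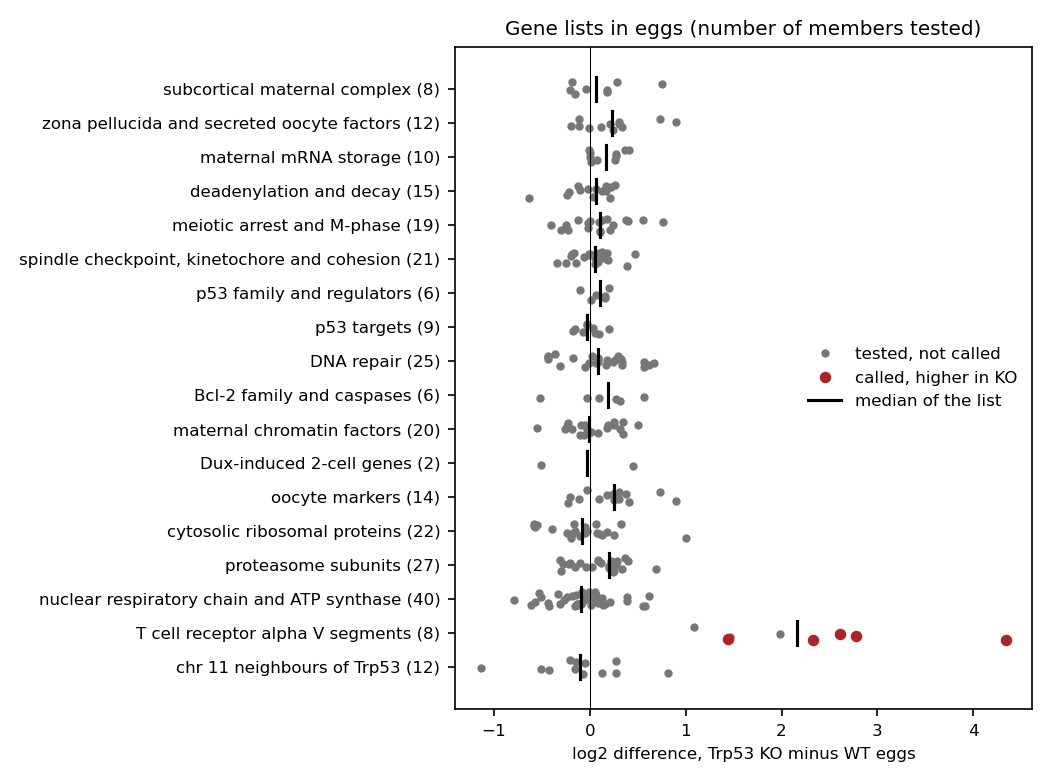
Log2 difference between eggs labelled Trp53 KO and WT eggs for the tested members of each gene list (points; number tested in brackets), with the median of the list as a bar. Most lists have medians between -0.11 and 0.25, and the 5 called members, all higher in the eggs labelled Trp53 KO, are T cell receptor alpha V segments, of which 7 met the rule for the set through those eggs alone.

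Trp53 RNA was present in every egg, and its level did not separate the labels. Trp53 (ENSMUSG00000059552, build mm10, chromosome 11, 69580359 to 69591873, plus strand) had FPKM of 8.45, 9.81 and 6.33 in the eggs labelled Trp53 KO and 6.16, 7.16 and 10.3 in WT eggs. The groups overlapped, and the log2 difference of 0.06 had a 95% interval of -0.52 to 0.64 (limma adjusted p = 0.956). In early 2-cell embryos labelled Trp53 MZ-KO the FPKM was 0.311 to 1.11 with a median of 0.856, against 2.60 to 9.29 with a median of 6.29 in WT embryos. The early groups did not overlap, and Trp53 was lower in the embryos labelled MZ-KO by a log2 difference of -1.92 (SE 0.25, limma adjusted p = 0.00126). From egg to early embryo the genotype difference changed by -1.98 (SE 0.42, limma adjusted p = 0.0440). In late embryos FPKM of Trp53 was 1.48 to 5.39 in those labelled MZ-KO and 0.557 to 7.09 in WT.

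The principal transcript, Trp53-201, has 11 exons and 1772 bases, of which exons 2 to 10 hold 1091, or 61.6%. Exons 1 and 11 lie outside the deleted stretch with 38.4% of the bases. A gene value over the whole span cannot separate deleted from retained exons, so the Trp53 value checks the egg labels only in part. On this same measure the mean FPKM was 0.77 in early embryos labelled MZ-KO and 6.05 in WT embryos. In eggs it was 8.19 under the label Trp53 KO and 7.86 under the label WT. Whether the eggs carry the deletion was not tested, and the 3 knockout eggs are called by their label throughout. Every direction given here rests on that label. No gene that starts within 500 kb of Trp53 was called. Of 63 protein-coding neighbours 12 were in the set, with a median log2 difference of -0.11 and 3 at an unadjusted p below 0.05. Eif5a, a translation factor, had FPKM of 156, 139.5 and 131 in the eggs labelled Trp53 KO and 126, 149 and 175 in WT eggs. Cd68, a macrophage glycoprotein gene, was the widest neighbour, with 0, 1.25 and 0.640 FPKM in the eggs labelled Trp53 KO and 2.34, 3.05 and 1.87 FPKM in WT eggs (log2 difference -1.13, limma adjusted p = 0.320).

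Over the whole store, few genes separated the eggs by label. By limma on log2(FPKM + 1), with a trend and robust moderation, 22 of 6607 genes (0.333%) had a Benjamini-Hochberg adjusted p below 0.05. Of these, 14 were higher in the eggs labelled Trp53 KO (0.212% of genes) and 8 were lower (0.121%). At an unadjusted p below 0.05 there were 577 genes, 344 higher and 233 lower. The median log2 difference was 0.06 and the median absolute difference 0.21, with a median SE of 0.23. The eggs labelled Trp53 KO lay above all WT eggs in 657 genes and below all of them in 368, and all 22 called genes were among these. An absolute log2 difference of 1 or more was seen in 163 genes, and 75 genes were at FPKM 1 or more in all 3 eggs labelled Trp53 KO and in no WT egg, of which 12 were called. The reverse held for 36 genes, of which 3 were called. Genes of both kinds met the rule for the set through 1 label alone, so the rule fixed their direction. This covers 12 of the 14 genes called higher and 3 of the 8 called lower. FPKM is relative to the library, so a difference in total RNA per egg would not show.

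**Figure D3:**
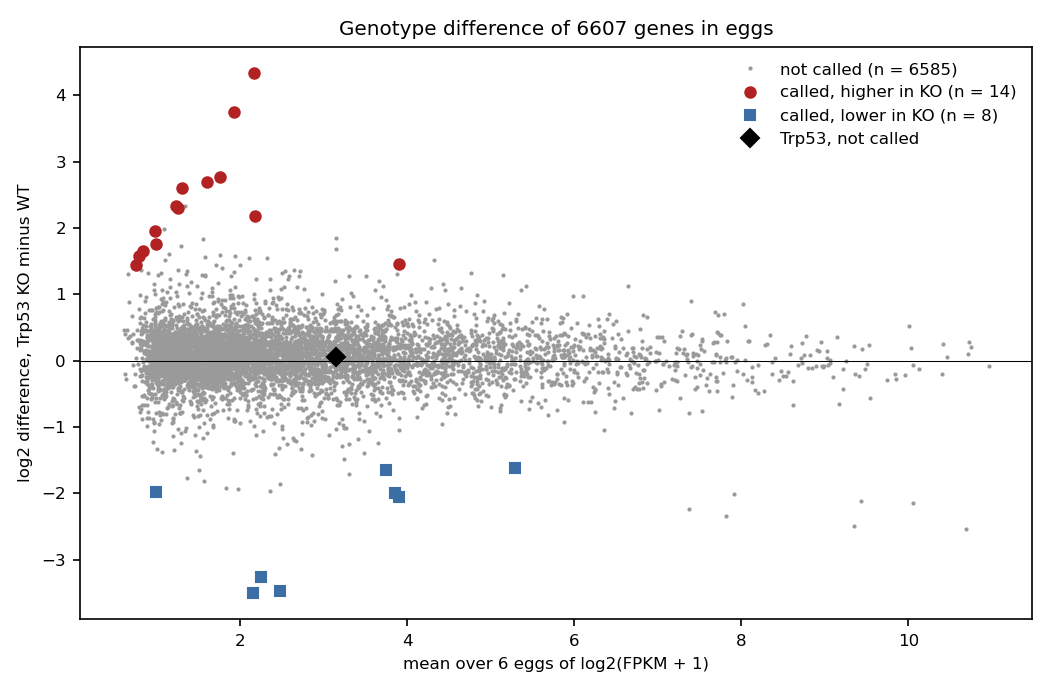
Log2 difference between eggs labelled Trp53 KO and WT eggs (vertical) against the mean of log2(FPKM + 1) over the 6 eggs (horizontal), for 6607 genes. Circles mark the 14 genes called higher in the eggs labelled Trp53 KO, squares the 8 called lower and the diamond Trp53, which lies at 0.06.

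The called genes were mostly not protein-coding. Only Rnase6, Cnpy4 and Gm9008 are annotated as protein-coding, the others being pseudogenes, antisense and intergenic transcripts, V segments and a miRNA. Of the 22, 9 overlap another annotated gene and 8 had a mean FPKM below 5 in both groups. Starts within 250 kb of each other were joined, which left 15 loci on 6 chromosomes. Chromosome 14 held 6 of the called genes, all higher. Of these, 5 were T cell receptor alpha V segments, a family whose copies can share reads, so they may not be separate signals. They also enter the share of tested genes at an unadjusted p below 0.01, which was 9.96% on this chromosome, beside 2.47% of all tested genes. The share was 5.09% on chromosome 1, 4.51% on chromosome 6 and 4.21% on chromosome 9, and no gene on chromosome 11, where Trp53 lies, was called.

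T cell receptor alpha V segments made up the largest family among the called genes. A V segment encodes the variable part of a T cell receptor chain once T cells have joined it to the constant part, and eggs have no such receptor. Of 128 segments 8 were in the set, and 5 were called, all higher in the eggs labelled Trp53 KO. In 7 of the 8 no WT egg reached FPKM 1, so they met the rule through the eggs labelled Trp53 KO alone, and the direction of the members in the set was fixed by that rule. Over all 128, the summed FPKM was 44.2 to 66.2 in the eggs labelled Trp53 KO and 1.29 to 4.44 in WT eggs. At least 1 read was recovered from 19, 21 and 20 segments in the eggs labelled Trp53 KO and from 3, 10 and 4 segments in WT eggs. T cell markers did not separate the labels. The 12 markers summed to FPKM of 0.004 to 2.99 in the eggs labelled Trp53 KO and 0.412 to 1.55 in WT eggs, 5 were at 0 in every egg, and Trbc1 alone reached the set, with 1.07, 2.41 and 0 FPKM in the eggs labelled Trp53 KO and 0.256, 1.23 and 0.526 FPKM in WT eggs.

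Many V segments have near-identical copies, so a read can fit several of them. Trav13-3 matches Trav13d-3 at 99.7% over 337 bases, and Trav9n-2 matches Trav9d-2 at 100% over 340 bases. The sequences below are shown because they set out how far the reads of a called segment can be told from those of its nearest tested copies, with the bases that differ in capitals. They are 120 bases each, 5′ to 3′, of the annotated transcripts (GENCODE M21, build mm10). Trav9-2 (chr14:53590857-53591514, plus strand) and Trav9d-2 (chr14:52892186-52892618, plus strand) differ in 3 of these bases and in 5 over 340.
Trav9-2: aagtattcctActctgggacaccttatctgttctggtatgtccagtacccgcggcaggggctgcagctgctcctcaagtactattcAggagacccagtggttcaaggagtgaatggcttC
Trav9d-2: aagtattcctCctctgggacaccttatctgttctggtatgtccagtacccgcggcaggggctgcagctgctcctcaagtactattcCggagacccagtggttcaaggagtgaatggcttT
Trav7-6 (chr14:53716716-53717291, plus strand) and Trav7n-6 (chr14:53324632-53325208, plus strand) differ in 6 of the bases shown and in 9 over 381.
Trav7-6: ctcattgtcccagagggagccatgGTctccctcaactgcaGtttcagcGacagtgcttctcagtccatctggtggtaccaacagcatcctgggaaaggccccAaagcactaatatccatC
Trav7n-6: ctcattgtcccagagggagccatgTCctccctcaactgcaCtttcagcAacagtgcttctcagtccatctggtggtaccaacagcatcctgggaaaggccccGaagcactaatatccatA

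Trav13-3, a V pseudogene, had FPKM of 33.9, 19.5 and 10.6 in the eggs labelled Trp53 KO and 0 in all 3 WT eggs. That is 236, 183 and 106 recovered reads in the eggs labelled Trp53 KO and none in WT eggs, and the mean was at least 68.8-fold higher, with WT eggs set to a floor of 3 reads per library. Its log2 difference of 4.34 (SE 0.36, limma adjusted p = 0.00222) was the largest of all genes on this scale, where a gene at 0 takes a size that depends on the pseudocount. Its near-copy Trav13d-3 had 8.43, 5.48 and 2.71 FPKM in the eggs labelled Trp53 KO and 0 in all 3 WT eggs, in the same order of eggs, and was at least 19.8-fold higher. Trav7-6 had 3.99, 4.78 and 4.13 FPKM in the eggs labelled Trp53 KO and 0, 0.158 and 0 FPKM in WT eggs (log2 difference 2.33, limma adjusted p = 0.00123). Its copy Trav7n-6 was present in both groups, with 2.83, 4.96 and 3.32 FPKM in the eggs labelled Trp53 KO and 0.820, 1.89 and 0.933 FPKM in WT eggs, and its log2 difference of 1.09 was not called (limma adjusted p = 0.226). Trav9-2 had 3.83, 12.2 and 9.99 FPKM in the eggs labelled Trp53 KO and 0, 0.554 and 0.409 FPKM in WT eggs (limma adjusted p = 0.0375). Trav3-1 had 1.76, 1.80 and 1.79 FPKM in the eggs labelled Trp53 KO and 0, 0.083 and 0 FPKM in WT eggs, from 13 to 19 reads in the eggs labelled Trp53 KO and at most 1 in WT eggs. In all 5 called segments each egg labelled Trp53 KO was above each WT egg, as in 9.94% of all genes. The rule for the set fixed this, since no WT egg reached FPKM 1 in them.

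Rnase6, a secreted ribonuclease of the antimicrobial RNase A family, lies on the same chromosome (14, 51123908 to 51132187) and overlaps no other gene. Its FPKM was 4.02, 4.91 and 4.01 in the eggs labelled Trp53 KO and 0, 0.220 and 0 in WT eggs, from 449 to 739 reads in the eggs labelled Trp53 KO and 0 to 40 in WT eggs. The 3 eggs labelled Trp53 KO were close to each other, and the log2 difference of 2.31 had an SE of 0.17 (limma adjusted p = 0.00123). The 8 other tested genes within 250 kb of Rnase6 had a median log2 difference of 0.02, and none was called.

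Cnpy4, on chromosome 5 (138187485 to 138193918), fell in the eggs labelled Trp53 KO. It encodes a chaperone-like protein of the endoplasmic reticulum that acts on Toll-like receptors. Its FPKM was 4.84, 6.57 and 7.51 in the eggs labelled Trp53 KO and 25.4, 29.7 and 28.3 in WT eggs. No egg lay between the groups, and the log2 difference was -1.99 (SE 0.21, limma adjusted p = 0.00998). The 9 other tested genes within 250 kb had a median of -0.01, and none was called.

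A cluster of clone-named genes on chromosome 6 was higher. Gm44988, a processed pseudogene at 130939248 to 130940408, had FPKM of 9.52, 14.8 and 15.4 in the eggs labelled Trp53 KO and 0, 0 and 0.116 in WT eggs. That is 149, 312 and 346 reads in the eggs labelled Trp53 KO and 0, 0 and 2 in WT eggs, a log2 difference of 3.75 (SE 0.22, limma adjusted p = 0.000531). The nearby processed pseudogene Gm44828 had 7.00, 11.9 and 7.81 FPKM in the eggs labelled Trp53 KO and 0.446, 1.29 and 1.91 FPKM in WT eggs, but rested on at most 23 reads. Gm33962, a transcribed pseudogene in the same stretch, was on in both groups with 20.9, 24.1 and 26.8 FPKM in the eggs labelled Trp53 KO and 6.69, 7.94 and 9.56 FPKM in WT eggs (log2 difference 1.46, limma adjusted p = 0.0435). Within 250 kb of Gm44988 lay 9 other tested genes, with a median log2 difference of 0.29.

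At a pair of further loci the called genes overlap each other, can share reads and may be 1 signal each. On chromosome 9, near 124340783, Gm47179, Gm47180 and Gm47181 were lower. Gm47179 had FPKM of 20.4, 19.9 and 23.7 in the eggs labelled Trp53 KO and 89.0, 64.0 and 53.9 in WT eggs (log2 difference -1.62, limma adjusted p = 0.0426), and the log2 difference was -1.65 for Gm47180 and -2.05 for Gm47181. On chromosome 6, near 76495432, the protein-coding Gm9008 and its antisense gene Gm44166 were lower. Gm9008 had 0.567, 0.515 and 0.528 FPKM in the eggs labelled Trp53 KO and 9.65, 16.6 and 15.96 FPKM in WT eggs (log2 difference -3.26, limma adjusted p = 0.00123), and Gm44166 moved by -3.47. These were the widest gaps on the lower side beside Gm37787, an antisense gene in Slamf7, which had 1.23, 0 and 0.045 FPKM in the eggs labelled Trp53 KO and 11.04, 20.8 and 11.9 FPKM in WT eggs (log2 difference -3.50, limma adjusted p = 0.00998).

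Gm39321, a lincRNA on chromosome 9 (42141993 to 42146506), was higher with little spread among the eggs of a label. Its FPKM was 7.31, 6.83 and 6.17 in the eggs labelled Trp53 KO and 0.168, 0.242 and 0.164 in WT eggs, from 445 to 560 reads in the eggs labelled Trp53 KO and 11 to 24 in WT eggs. The log2 difference was 2.70 (SE 0.16, limma adjusted p = 0.000531). Gm19140, a processed pseudogene on chromosome 8, was at 0 in all eggs labelled Trp53 KO and at 3.26, 2.60 and 3.04 FPKM in WT eggs, at least 6.90-fold lower than WT by the floor of 3 reads. Gm28172, antisense within Prox1, had 2.00, 3.08 and 3.76 FPKM in the eggs labelled Trp53 KO and 0 in every WT egg, at least 17.7-fold higher. Gm16186, a pseudogene, had 2.47, 1.31 and 2.34 FPKM in the eggs labelled Trp53 KO and 0 in every WT egg, at least 10.7-fold higher. Gm5874, a processed pseudogene, had 2.04, 4.33 and 2.04 FPKM in the eggs labelled Trp53 KO and 0, 0 and 0.265 FPKM in WT eggs.

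The single miRNA locus among the calls, Mir7654 (chromosome 8, 8690093 to 8690162, minus strand), rests on very few reads. It lies within Arglu1 and had FPKM of 2.12, 1.57 and 2.96 in the eggs labelled Trp53 KO and 0 in every WT egg, which is 2, 2 and 4 reads in the eggs labelled Trp53 KO. Its short span turns a few reads into FPKM above 1, and a level at the floor of 3 reads gives no fold. The mature miRNA (RefSeq, GRCm38.p6, chr8:8690093-8690114, minus strand) is given to identify the locus, with its seed, bases 2 to 8, in capitals. A poly(A)-primed library reads mature miRNAs poorly, and no read here is shown to come from it.
mmu-miR-7654-3p: cGAGCGGGagcgcgccucgucc

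Just outside the threshold lay 8 genes with adjusted p of 0.0514 to 0.0633. Alyref2, a paralogue of an mRNA export factor, had FPKM of 10.5, 20.5 and 18.2 in the eggs labelled Trp53 KO and 3.57, 2.86 and 4.81 in WT eggs. Trav9n-2 had 1.88, 5.97 and 2.75 FPKM in the eggs labelled Trp53 KO and 0, 0.210 and 0 FPKM in WT eggs. The others were Gm16328, Gm8790, Vmn2r-ps110, Gm10364, Gm4118 and Gm13341, a nuclear copy of mt-Co2. In all 8 the groups did not overlap, but these genes were picked by their small p. Over all genes of the set, the eggs labelled Trp53 KO lay above all WT eggs in 9.94% and below all of them in 5.57%.

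The genes called in eggs were looked up in the early 2-cell embryos, which still hold part of the maternal store. Of the 22, 18 were tested there and 10 had a difference of the same sign, among 252 of 7675 genes (3.28%) called at that stage by limma. Cnpy4 was the single one called, and in the opposite direction. Its FPKM was 23.5 to 59.7 with a median of 43.4 in embryos labelled MZ-KO and 11.46 to 27.04 with a median of 21.3 in WT embryos, a log2 difference of 0.93 (limma adjusted p = 0.0371). No egg call was called under median-ratio scaling of that stage. Without WT early library 3, Trav9-2 was called too, in the same direction as in eggs.

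The difference between the stages was tested as a contrast of the 4 groups, in which 34 of 9676 genes (0.351%) were called by limma, 21 higher and 13 lower. Among them were 5 of the 22 egg calls. These 22 were picked by their egg difference, and the same egg libraries enter the contrast. Their share is therefore not independent of the pick and cannot be set against that of all genes. The change in log2 difference from eggs to early embryos was -5.06 for Gm44988 (adjusted p = 0.0373), with -1.31 in early embryos against 3.75 in eggs, of opposite sign. For Gm39321 it was -2.09 (adjusted p = 0.0331), with 0.62 in early embryos against 2.70 in eggs, and for Gm28172, too low in early embryos for a test of its own, it was -2.46 (adjusted p = 0.00584). Signs were opposite too for Cnpy4, with 0.93 in early embryos against -1.99 in eggs, a change of 2.92 (adjusted p = 0.000738), and for Gm37787, with 1.34 in early embryos against -3.50 in eggs, a change of 4.84 (adjusted p = 0.00584). Of these early differences only that of Cnpy4 was called at that stage.

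Several egg calls split the early embryos within a label. Gm44988 had FPKM of 0.039, 0.168 and 0 in MZ-KO libraries 1 to 3 and 11.3, 7.94 and 14.6 in MZ-KO libraries 4 to 6, and 5.06 to 16.4 in WT embryos. Gm47179 had 103, 94.2 and 96.2 FPKM in MZ-KO libraries 1 to 3 and 27.6, 26.8 and 25.1 FPKM in MZ-KO libraries 4 to 6, with all WT embryos between, at 43.9 to 61.9 FPKM. Neither gene separated the early groups. Rnase6 had 1.85 to 10.5 FPKM in all embryos labelled MZ-KO, and in WT embryos 3.47 to 6.00 FPKM in libraries 1 to 5 and at most 0.1 FPKM in libraries 6 to 8. Trav13-3 had 7.68 to 60.4 FPKM in embryos labelled MZ-KO, and in WT embryos 10.6 to 32.9 FPKM in libraries 1 to 5 and at most 0.203 FPKM in libraries 6 to 8. Gm9008 ran the other way among the labels, with 0.111 to 0.773 FPKM in embryos labelled MZ-KO, and in WT embryos 2.94 to 7.65 FPKM in libraries 1 to 5 and 0.354 to 0.534 FPKM in libraries 6 to 8. WT early libraries 6 to 8 thus had Trav13-3 and Rnase6 near 0, as in WT eggs, but Gm9008 low, as in the eggs labelled Trp53 KO. What sets these libraries apart was not tested.

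**Figure D4:**
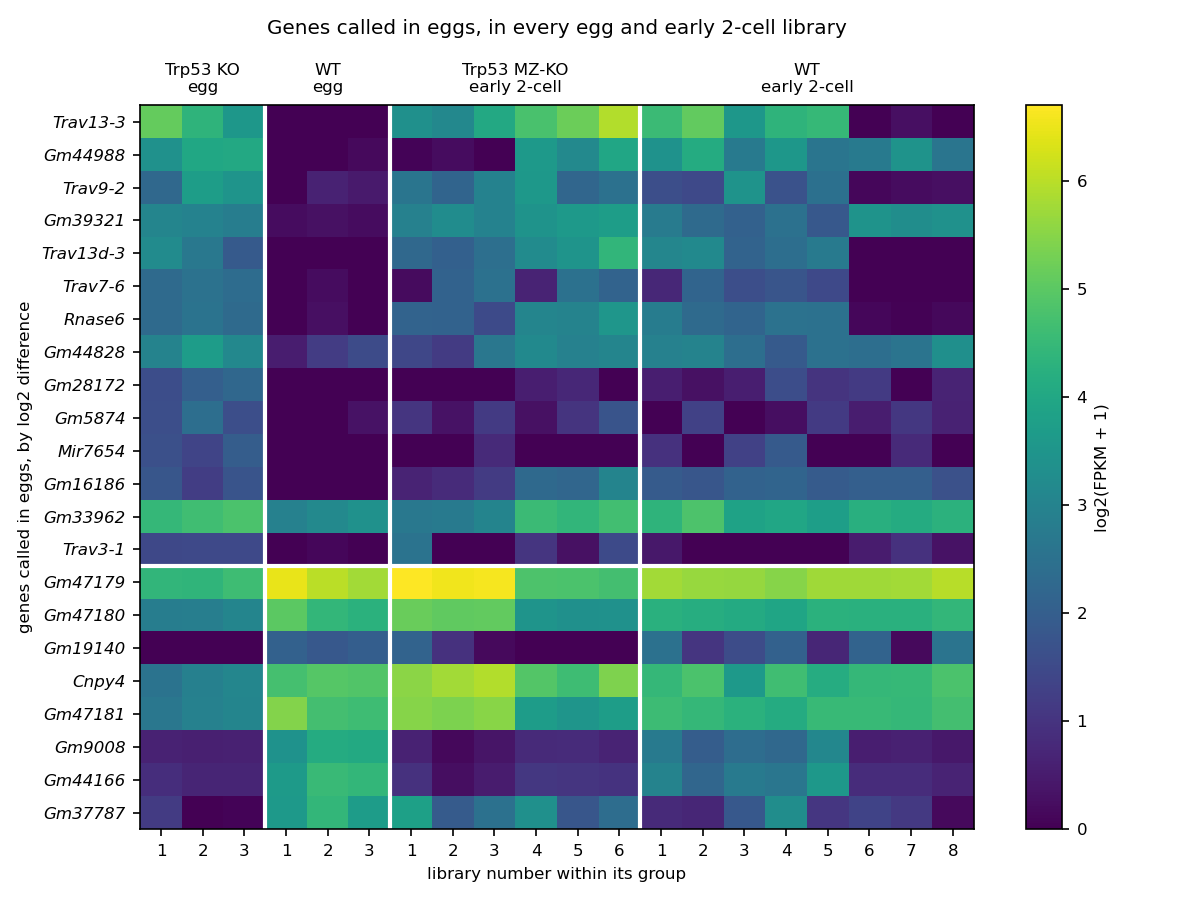
Expression, as log2(FPKM + 1) from 0 (dark) to above 6 (bright), of the 22 genes called in eggs (rows; the line parts the 14 higher from the 8 lower) in each of the 6 egg and 14 early 2-cell libraries (columns). Gm44988 and the Gm47179 cluster split MZ-KO libraries 1 to 3 from 4 to 6, and Rnase6 and Trav13-3 are near 0 in WT early libraries 6 to 8.

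In the other direction, 219 of the 252 genes called in early embryos were tested in eggs. Of these, 113 (51.6%) had the same sign in eggs, beside 3035 of all 5841 genes tested at both stages (52.0%), and Cnpy4 alone was called in eggs. The 181 tested genes that were higher in early embryos labelled MZ-KO had a median log2 difference of 0.74 there and 0.06 in eggs, with 21 at an unadjusted p below 0.05 in eggs. The 38 lower ones had a median of -0.71 in early embryos and 0.11 in eggs, with 28 positive and 2 at an unadjusted p below 0.05. Crnkl1, a splicing factor with the smallest p at the early stage, had FPKM of 7.00, 9.57 and 11.8 in the eggs labelled Trp53 KO and 7.61, 9.003 and 8.96 in WT eggs, a log2 difference of 0.11, beside 2.84 in early embryos. Ggct, an enzyme of glutathione turnover, had 90.3, 99.8 and 108 FPKM in the eggs labelled Trp53 KO and 150.5, 115 and 112 FPKM in WT eggs, a log2 difference of -0.33, beside -1.34 in early embryos. The groups of Ggct did not overlap in eggs, yet its limma adjusted p there was 0.687. Pfn1, the actin-binding profilin, had 53.3, 57.5 and 40.2 FPKM in the eggs labelled Trp53 KO and 32.0, 35.4 and 37.3 FPKM in WT eggs, a log2 difference of 0.50 (limma adjusted p = 0.558), beside 1.23 in early embryos. Of the other genes with the smallest early p, Erich5 had a log2 difference of 0.94 in eggs, led by 1 egg labelled Trp53 KO at 12.9 FPKM, and Gm44429, AC163720.1, Peak1os, Nkapd1 and Gm10857 had -0.32 to 0.24.

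Nuclear copies of mitochondrial genes varied widely between eggs; they were chosen after their values were seen. The 13 mitochondrially encoded protein genes were listed at 0 in all 6 eggs. A block of 7 nuclear copies on chromosome 1 was in the set, with 98.2% to 100% of each transcript aligned to its mitochondrial gene. Reads of mitochondrial transcripts fit the copies equally well. Gm10925 (chr1:24613974-24614651, minus strand) matches mt-Atp6 in all of 678 bases, so the first 120 bases, printed to show what such a read looks like, are those of both genes.
Gm10925: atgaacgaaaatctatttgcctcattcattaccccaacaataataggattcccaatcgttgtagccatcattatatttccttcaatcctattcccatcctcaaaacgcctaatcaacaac

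Gm10925 had FPKM of 2559, 266 and 464 in the eggs labelled Trp53 KO and 6293, 3205 and 3109 in WT eggs. Every egg labelled Trp53 KO lay below every WT egg, but the log2 difference of -2.54 had a 95% interval of -4.29 to -0.79 and was not called (limma adjusted p = 0.408). The adjusted p of the 7 copies ran from 0.211 to 0.464. Together they took 4.74%, 0.687% and 1.30% of the summed FPKM of genes at FPKM 1 or more in the eggs labelled Trp53 KO and 10.9%, 6.46% and 6.47% in WT eggs. In early embryos the share was 4.00% to 7.47% in those labelled MZ-KO, and in WT embryos it was 5.96% to 11.8% in libraries 1 to 5 and 1.89%, 0.643% and 0.267% in libraries 6 to 8. The low WT libraries were those in which Rnase6 and Trav13-3 were near 0, whereas in eggs the low shares were in the group in which both genes were high.

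**Figure D5:**
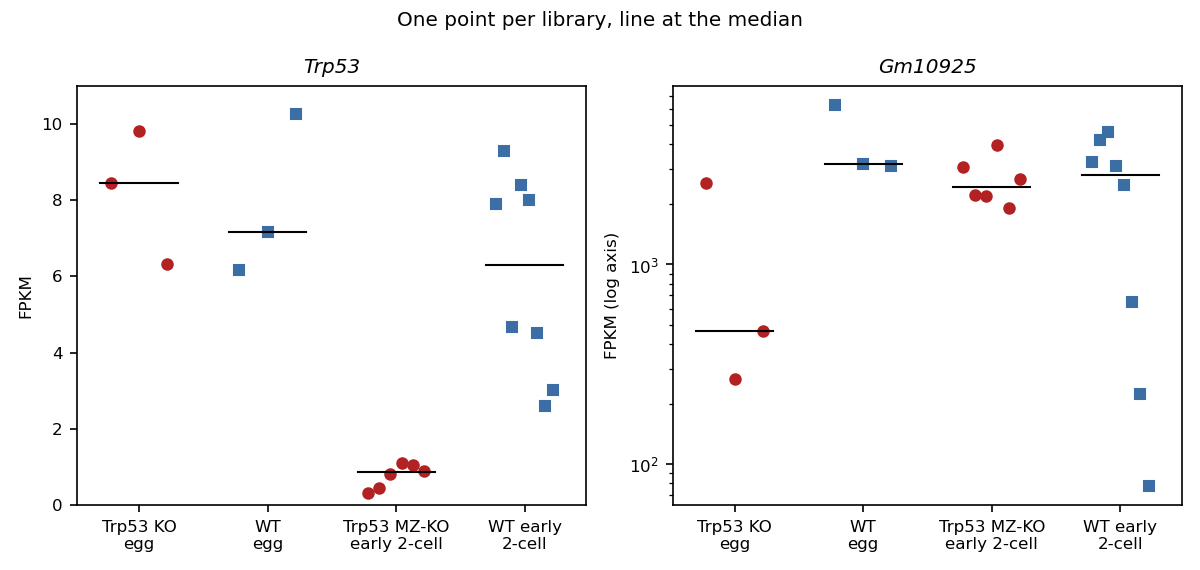
FPKM of Trp53 (left, linear axis) and of Gm10925, the nuclear copy of mt-Atp6 (right, log axis), in each egg and early 2-cell library, with a line at the group median. Trp53 is lower in MZ-KO than in WT early embryos but not in the eggs labelled Trp53 KO, and Gm10925 spans 266 to 2559 in the eggs labelled Trp53 KO and 3109 to 6293 in WT eggs.

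Eggs of 1 label also differed among themselves, by a median pooled SD of 0.28 in log2(FPKM + 1). Of protein-coding genes with a mean FPKM of 10 or more, Tceal8, an X-linked elongation-factor-like gene, spread most, with FPKM of 27.2, 30.8 and 54.2 in the eggs labelled Trp53 KO and 2.14, 47.0 and 32.1 in WT eggs. Tacc3, a spindle microtubule protein, had 32.6, 29.4 and 34.3 FPKM in the eggs labelled Trp53 KO and 4.77, 32.1 and 33.1 FPKM in WT eggs. Ftsj3, an RNA methyltransferase of ribosome assembly, had 22.7, 20.8 and 22.8 FPKM in the eggs labelled Trp53 KO and 3.21, 18.1 and 23.5 FPKM in WT eggs. All 3 genes were lowest in WT egg library 1. Cdc20, the activator of the anaphase-promoting complex, had 24.8, 17.7 and 73.2 FPKM in the eggs labelled Trp53 KO and 38.3, 24.1 and 59.7 FPKM in WT eggs. Pnma5 and Gm10553 were the other genes of the widest spread.

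The number of genes detected overlapped between the labels. Genes at FPKM 1 or more numbered 6677, 6703 and 6308 in the eggs labelled Trp53 KO and 6088, 6532 and 6259 in WT eggs. The difference of means of 269.7 genes had a two-sided exact permutation p of 0.2, where 3 eggs against 3 cannot go below 0.1.

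Not all calls were equally firm. Under 14 other settings of filter, scale, fit and left-out egg, the log2 difference of no called gene changed sign. This says nothing of firmness. The groups of all 22 did not overlap, so a left-out egg, another pseudocount or exonic length could not turn the sign. Other filters and fits leave the log2 difference as it is. Gm44988 and Gm39321 were called in all 14 and Trav7-6 in all 13 in which it was tested. Rnase6, Gm9008 and Gm44166 were also called in each of the 6 fits without 1 egg, Trav13-3 in 5 of them and Cnpy4 in 2, whereas the Gm47179 cluster, Gm33962, Gm5874, Gm16186, Mir7654 and Trav3-1 were called in none. The number of calls was 38, 8 and 12 without library 1, 2 or 3 of the eggs labelled Trp53 KO, and 6, 7 and 7 without library 1, 2 or 3 of the WT eggs.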

How the data were processed

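Single metaphase II eggs and 2-cell embryos were sequenced, and 1 table of 32 libraries gave FPKM per gene. The authors deposited FPKM only; TopHat2, DESeq, DESeq2 and build mm10 are named per the submitters' processing notes, with no version and no role, and the annotation is not given in the sources used here. In the low values of the eggs, 99.3% to 99.8% were whole multiples (within 0.1 read) of 1 read over the genomic span, so the length in the deposited FPKM is the span with introns, and reads could be recovered from it. No read could be assigned to a strand.

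Genes were matched to GENCODE M21 (54495 of 54532 identifiers), and 27 symbols that a spreadsheet had turned into dates were restored. The 3 eggs labelled Trp53 KO and the 3 WT eggs were compared with limma 3.58.1 (R 4.3.3, statmod 1.5.0) on log2(FPKM + 1), with trend and robust moderation, over genes with FPKM of at least 1 in 3 or more of 6 eggs, and p was adjusted by Benjamini-Hochberg over all of them with a threshold of 0.05. The pseudocount understates the change of low genes. Early embryos were fitted likewise, over genes reaching FPKM 1 in 6 or more of 14 libraries, and the contrast between stages over genes reaching it in 3 or more of 20 libraries. The test of a single value was an exact permutation test (scipy 1.17.1). Sequence copies were found with blastn 2.17.0. The limma code was tested on simulated, normally distributed log2 values for the egg comparison. The early fit, the contrast between stages and the other settings were not simulated.

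Replicate eggs have no number in the columns. Named were Trp53, the called genes (up to 30), the 8 uncalled genes with the smallest p, in each list the 3 members highest in WT eggs and the one with the smallest p, the 15 most abundant protein-coding RNAs of WT eggs, the 6 of largest spread and the 10 early calls of smallest p; a few of these were left without values. The members and lists were chosen with earlier results of these data known. Alternatives were another pseudocount, other filters, median-ratio scaling, exonic length, a fit over all libraries, plain moderation and each egg left out. Late embryos entered with Trp53 only.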

Additional observations from a re-analysis of the deposited data

Results flagged for a closer look

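The genotype difference changed between eggs and early 2-cell embryos, by limma's test of the difference itself, for 5 of the genes called in eggs and for Trp53. The change in log2 difference, early embryos minus eggs, was -5.06 for Gm44988, -2.09 for Gm39321, -2.46 for Gm28172, 2.92 for Cnpy4, 4.84 for Gm37787 and -1.98 for Trp53. Among the other genes described it passed the same test for Crnkl1 (2.73), Ggct (-1.02), Alyref2 (-2.72), Gm8790 (-2.33), Gm13341 (2.74) and Gas5 (2.58). Apart from Trp53, all of these genes were picked by their values in eggs or early embryos. The same libraries enter this test, so it is not independent of the pick. Cnpy4 was called in both stages, lower in eggs labelled Trp53 KO and higher in embryos labelled MZ-KO.

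Among the early libraries, 1 sample stood far from the others of its group in 7 of 46 groups examined. The critical value is one that chance passes in about 1 in 20 groups of independent, normally distributed values. Raw FPKM, often at 0 and in part from genes that overlap, does not meet this, so the count cannot be set against that rate. In embryos labelled MZ-KO, library 1 was high for Trav3-1 (4.89 FPKM) and Gm19140 (3.40 FPKM), and library 3 was the single one above 0 for Mir7654 (0.736 FPKM). In WT embryos, library 3 was high for Trav9-2 (9.82 FPKM), library 2 for Gm33962 (27.7 FPKM), library 7 for Trav3-1 (0.954 FPKM) and library 4 for Gm37787 (8.72 FPKM). No cause was tested.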

How the results depend on the processing

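The main fit called 22 genes, 14 higher and 8 lower, and the number depended on the settings. With a pseudocount of 0.1 it was 8 of 6607 genes tested (5 higher, 3 lower). With no filter it was 6 of 25001 (5 and 1), and with a filter of FPKM 5 it was 14 of 2710 (6 higher). A filter of 20 recovered reads gave 11 of 14216 (6 and 5), and exonic length gave 34 of 12066 (17 lower). A fit over all 32 libraries called 14 lower. Filters and exonic length change the number of genes tested, so these counts are not like for like. Leaving out 1 egg gave 6 to 38 calls, 4 to 17 of them higher and 2 to 21 lower: 38 without Trp53 KO egg 1, 8 and 12 without Trp53 KO eggs 2 and 3, and 6, 7 and 7 without WT eggs 1, 2 and 3. The cause was not tested. Of 292 alternatives of single called genes, 162 kept the call, 130 lost it and 0 changed sign. Apart from median-ratio scaling, the settings could not have turned a sign, because the groups of every called gene did not overlap. The Trp53 difference in eggs, never called, was -0.013 under median-ratio scaling and ran from -0.078 (without WT egg 1) to 0.248 (without WT egg 3) with 1 egg left out, at -0.063 without Trp53 KO egg 2. Egg calls that were also called in early embryos in the same direction numbered 0, and 1 without WT early library 3, an alternative chosen after seeing the data. Median-ratio scaling of the early stage left 76 of 173 early calls (43.9%) with the same sign in eggs. No paired analysis was possible because the columns of the table carry no replicate numbers. With 3 eggs a group, the 95% interval of the median gene reached 0.53 on either side of its log2 difference.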

Other observations

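A few uncalled genes, chosen after their values were seen, were low in libraries 2 and 3 of the eggs labelled Trp53 KO. Gas5, a non-coding host gene of small nucleolar RNAs, had FPKM of 1.44, 0.227 and 0.364 in the eggs labelled Trp53 KO and 5.47, 3.64 and 3.20 in WT eggs (log2 difference -1.65, limma adjusted p = 0.0917). In early embryos Gas5 was higher in those labelled MZ-KO, by 0.93 (limma adjusted p = 0.0118), and the change between stages was 2.58 (limma adjusted p = 0.000893). Mov10, an RNA helicase, had 2.23, 0.322 and 0.229 FPKM in the eggs labelled Trp53 KO and 3.57, 3.65 and 3.90 FPKM in WT eggs (limma adjusted p = 0.256). Junb, a transcription factor of the AP-1 family, had 7.20, 0 and 0 FPKM in the eggs labelled Trp53 KO and 6.66, 7.13 and 6.31 FPKM in WT eggs (limma adjusted p = 0.529). In Gas5 and Mov10 every egg labelled Trp53 KO lay below every WT egg, whereas for Junb library 1 of the eggs labelled Trp53 KO lay above all WT eggs.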
